A study of Mus musculus with 13 samples.

Results

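The genes of oxidative phosphorylation were taken from the deposited count table by symbol. Members were the rows marked protein-coding whose symbol began with mt- (mitochondrially encoded) or with the prefix of a respiratory chain subunit family. The prefixes were Nduf for complex I, Sdha, Sdhb, Sdhc and Sdhd for complex II, Uqcr for complex III, Cox4, Cox5, Cox6, Cox7 and Cox8 for complex IV, and Atp5 for the ATP synthase, complex V. Ndufa4 met the rule by the Nduf prefix but was counted with complex IV. The rule found 107 genes among the 21084 genes of the table, of which 14778 were marked protein-coding. Of the members, 13 were encoded by mitochondrial DNA and 94 by nuclear DNA. The nuclear members were 77 structural subunits, 12 assembly factors of complexes I and II, 3 tissue-restricted isoforms of complex IV (Cox6a2, Cox6b2 and Cox7a1), the retrocopy Cox5b-ps and the supercomplex factor Cox7a2l. All 107 passed the filter on low counts, so every member was tested.

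The cells were gamma delta intraepithelial lymphocytes (IELs), T cells that reside between the epithelial cells of the gut, sorted from wild-type mouse small intestine and profiled by bulk RNA sequencing with SMART-Seq HT. Every mouse received 200 µg of antibody intraperitoneally, either UC7-13D5, which binds the gamma delta T cell receptor, or Armenian hamster IgG as the control antibody. The sample labels place these injections 48 and 24 hours ahead of isolation, while the design text counts them from the second agent, so their exact timing is uncertain. The second agent, given intravenously 5 hours ahead of isolation, was either 1 µg of interferon alpha (IFNa), a type I interferon, or phosphate buffered saline (PBS). PBS was given to 3 IgG and 3 UC7-13D5 samples, and IFNa to 4 IgG and 3 UC7-13D5 samples, named IgG-PBS, UC7-PBS, IgG-IFNa and UC7-IFNa. The labels call the replicates biological. The sources used here give neither strain nor age nor the number of mice behind a library, so p-values measure the spread between these samples.

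The libraries held 19867201 to 26895876 estimated counts. The summed level of 12 gamma delta IEL markers was 46018 to 66767 CPM (counts scaled to library size), and all of them were detected. UC7-IFNa library 2 stood apart from its group in several measures given below, so the IFNa results are given with and without it. Xist was present in the IgG-PBS libraries (264.7 to 345 CPM) and at most 1.08 CPM in the UC7-13D5 libraries, where 4 Y-linked genes summed to 132 to 329 CPM. Both were found in IgG-IFNa libraries 3 and 4. IgG-IFNa libraries 1 and 2 held Xist at 204 and 215 CPM, with Y-linked sums of at most 2.15 CPM. With PBS, antibody and sex-linked transcripts therefore cannot be told apart. Comparisons that use the IgG-IFNa group were also unbalanced in these transcripts. In bulk libraries of this kind, fewer cells of a type and less RNA per cell cannot be told apart either.

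Oxidative phosphorylation couples the passage of electrons through complexes I to IV to proton pumping across the inner mitochondrial membrane, and complex V uses the proton gradient to make ATP. Complexes I, III, IV and V combine subunits read from the mitochondrial genome, which is transcribed as long polycistronic RNAs by a dedicated polymerase, with subunits read from many nuclear genes. Complex II, which is also an enzyme of the tricarboxylic acid cycle, is built from nuclear subunits only.

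The mitochondrial members lie close together, and some share bases, so that reads there can belong to more than 1 gene. They have no introns. The 2 coding sequences shown here, from the mouse reference transcripts (GENCODE M21, GRCm38), carry the same-strand overlaps of more than 1 base. The capitals mark the bases that also belong to the next gene, which are 43 bases of mt-Atp6 for mt-Atp8 and 7 bases of mt-Nd4 for mt-Nd4l.
mt-Atp8: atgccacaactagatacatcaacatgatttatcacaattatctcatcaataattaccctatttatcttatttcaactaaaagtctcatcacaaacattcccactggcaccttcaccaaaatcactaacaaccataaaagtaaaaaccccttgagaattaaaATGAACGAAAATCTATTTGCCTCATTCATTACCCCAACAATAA
mt-Nd4l: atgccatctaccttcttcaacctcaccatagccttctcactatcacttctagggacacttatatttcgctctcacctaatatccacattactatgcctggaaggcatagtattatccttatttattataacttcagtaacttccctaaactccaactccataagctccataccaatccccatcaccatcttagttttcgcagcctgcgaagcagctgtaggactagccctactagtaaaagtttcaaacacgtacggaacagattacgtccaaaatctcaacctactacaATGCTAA
The counts of mt-Atp8 and mt-Nd4l are uncertain for this reason. mt-Nd6, the only member on the other strand, spans bases 13552 to 14070 and overlaps the end of mt-Nd5, which reaches base 13565. The sources used here do not say whether counting used strand, so counts in the bases shared by mt-Nd5 and mt-Nd6 are uncertain too.

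Nuclear members have their own promoters, and nuclear respiratory factor 1 (NRF1) and GA-binding protein (GABP) are known activators of many of them. In the RefSeq promoter table (GRCm38.p6, 250 bases before to 50 after each start), 79 of the 94 nuclear members were matched by symbol. The palindromic NRF1 motif, searched on both strands and shown in capitals in the promoters printed here, occurred in 21 of the 79, or 26.6%, against 7.15% of 17462 protein-coding genes. The GABP letters CCGGAAGT occurred in 6.33% against 5.69%, and the motif of the factor YY1 in 6.33% against 1.05%. The median GC content was 58.8% for the members and 56.3% for all of them. A match is a description of the letters and not a binding site. The 3 promoters shown here hold more than 1 such match each, and belong to complexes II, III and V. Capitals mark the NRF1 motif on either strand, and in Atp5h also the GABP letters, which lie on the opposite strand there.
Sdha promoter, chr13:74350191-74350490, minus strand: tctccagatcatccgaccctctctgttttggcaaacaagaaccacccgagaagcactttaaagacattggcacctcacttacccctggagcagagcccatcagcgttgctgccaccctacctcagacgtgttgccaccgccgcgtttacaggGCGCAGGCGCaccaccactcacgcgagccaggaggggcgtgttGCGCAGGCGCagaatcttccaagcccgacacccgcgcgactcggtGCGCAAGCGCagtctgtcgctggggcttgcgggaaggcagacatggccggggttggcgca
Uqcrc1 promoter, chr9:108936398-108936697, plus strand: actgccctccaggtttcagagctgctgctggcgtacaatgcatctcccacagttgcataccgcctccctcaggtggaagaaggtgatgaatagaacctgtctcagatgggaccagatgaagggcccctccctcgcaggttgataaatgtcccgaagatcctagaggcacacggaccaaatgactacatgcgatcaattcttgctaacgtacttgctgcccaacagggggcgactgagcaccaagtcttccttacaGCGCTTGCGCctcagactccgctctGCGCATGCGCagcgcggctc
Atp5h promoter, chr11:115419870-115420169, minus strand: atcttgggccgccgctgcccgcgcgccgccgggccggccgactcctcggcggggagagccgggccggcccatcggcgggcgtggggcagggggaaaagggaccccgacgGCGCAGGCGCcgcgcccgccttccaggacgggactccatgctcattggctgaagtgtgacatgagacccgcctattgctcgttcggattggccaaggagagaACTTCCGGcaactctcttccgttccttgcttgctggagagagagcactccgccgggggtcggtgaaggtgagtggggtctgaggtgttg

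The mitochondrially encoded members took a smaller share of most libraries than the nuclear members, and the ratio was lower with IFNa. In replicate order, the 13 mitochondrial genes held 0.728%, 0.774% and 1.39% of counts after IgG and PBS, and 0.577%, 0.514%, 0.690% and 0.534% after IgG and IFNa. They held 1.26%, 1.07% and 0.938% after UC7-13D5 and PBS, and 0.541%, 1.02% and 0.550% after UC7-13D5 and IFNa. IgG-PBS library 3 was the highest of all, every IgG-IFNa library was below every IgG-PBS library, and UC7-IFNa library 2 alone of the IFNa libraries reached the PBS range. The group means were 0.962% ± 0.367 (SD, n = 3), 0.579% ± 0.0790 (n = 4), 1.09% ± 0.160 (n = 3) and 0.705% ± 0.276 (n = 3) for the groups as listed.

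The 94 nuclear genes held 1.21%, 1.28% and 1.22% of counts in IgG-PBS, and 1.20%, 1.05%, 1.29% and 1.098% in IgG-IFNa. They held 1.12%, 1.31% and 1.19% in UC7-PBS, and 1.06%, 1.71% and 1.09% in UC7-IFNa. UC7-IFNa library 2 was the highest of all, the other UC7-IFNa libraries lay just below UC7-PBS, and the IgG groups overlapped. The ratio of mitochondrial to nuclear counts within a library does not depend on how libraries are scaled. It was 0.603, 0.604 and 1.13 in IgG-PBS, 0.479, 0.488, 0.535 and 0.486 in IgG-IFNa, 1.13, 0.813 and 0.787 in UC7-PBS, and 0.508, 0.600 and 0.505 in UC7-IFNa. All 7 IFNa libraries lay below all 6 PBS libraries, and UC7-IFNa library 2 did so by the narrowest margin, at 0.600 against 0.603. On the log2 scale it averaged -0.43 ± 0.52 (SD, n = 3) with PBS and -1.01 ± 0.07 (n = 4) with IFNa after IgG. After UC7-13D5 it averaged -0.16 ± 0.29 (n = 3) with PBS and -0.90 ± 0.14 (n = 3) with IFNa. Without IgG-PBS library 3 the IgG-PBS mean was -0.73. As a sum over chosen genes, the ratio was given no test.

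**Figure D1:**
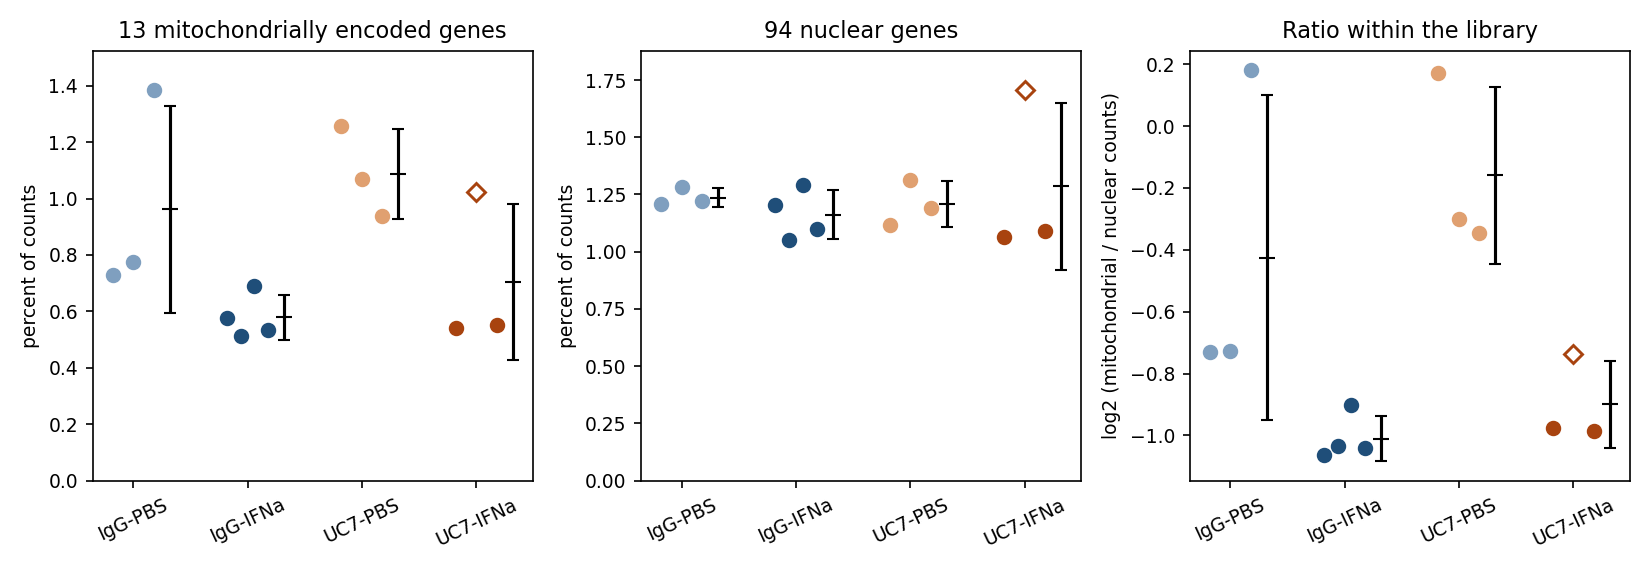
Percent of each library's counts on the 13 mitochondrially encoded genes (left) and on the 94 nuclear genes (middle), and the log2 ratio of both sums (right), by group. Points are libraries, bars are mean ± SD, and the open diamond is UC7-IFNa library 2, which is the highest library in nuclear genes at 1.71%. Its log2 ratio of -0.737 is the highest of the IFNa libraries and lies just below the lowest PBS library, IgG-PBS library 1 at -0.729.

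IFNa against PBS, averaged over both antibodies, asked how the interferon changed these genes irrespective of the antibody. All 13 mitochondrially encoded genes had lower estimates with IFNa, with a median log2 fold change of -0.67, where the median of all 15835 tested genes was 0.01. Only mt-Nd5 and mt-Nd4l, both of complex I, passed the test (edgeR adjusted p under 0.05) among the 13, while 1.99% of all tested genes passed and 0.423% passed as lower. Without UC7-IFNa library 2 the median was -0.92 and 10 of the 13 fell past the threshold, against 5.75% of 16224 genes called and 2.18% called lower. IgG-PBS library 3 also moved the median, to -0.40 when it alone was left out. None of the 94 nuclear members passed with all libraries, at a median of 0.10. An unadjusted edgeR p under 0.05 was found for 2 of the 94, against 2345 of all 15835 genes. Without library 2 the nuclear median was -0.12 and 1 of 94, Ndufv2, was called. The same comparison by DESeq2 called 5 mitochondrial and 0 nuclear members with all libraries, out of 777 of 15835 genes called, 275 of them lower.

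**Figure D2:**
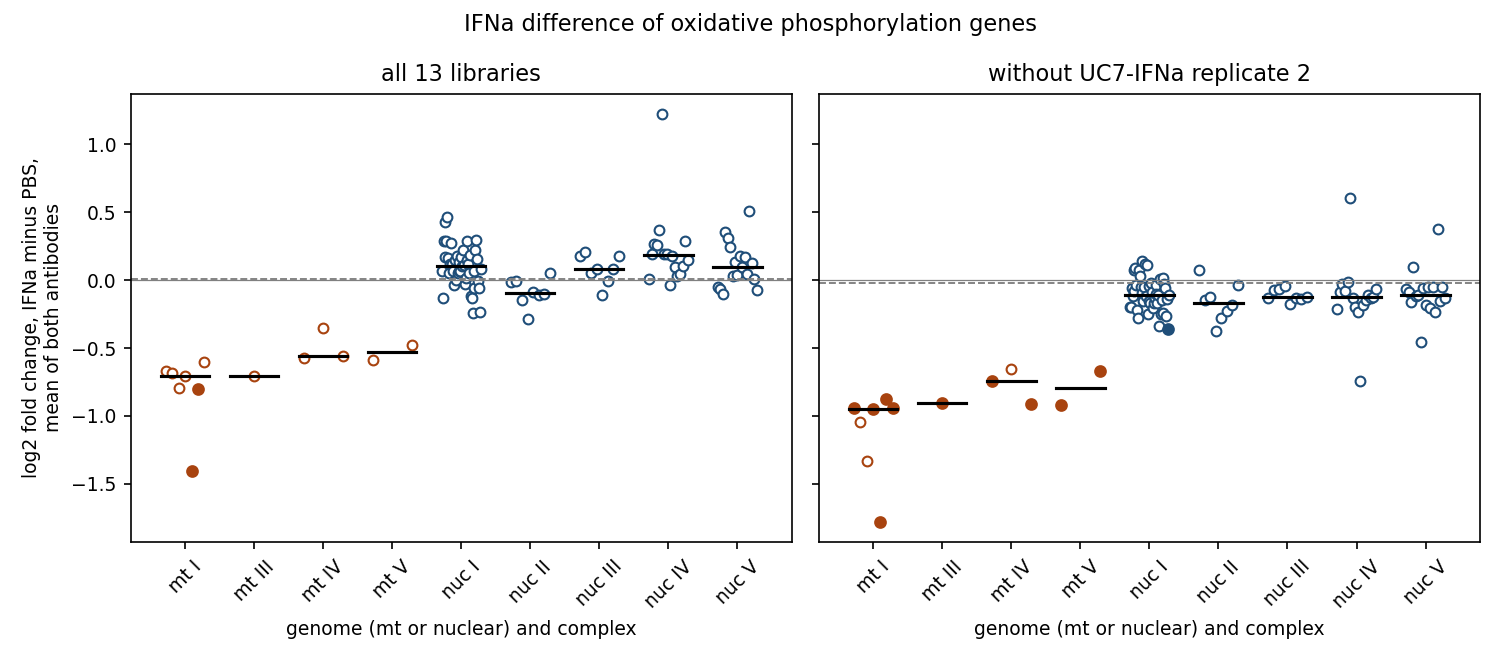
Log2 fold change of IFNa minus PBS, averaged over both antibodies, for each member by genome and complex, with all libraries (left) and without UC7-IFNa library 2 (right). Filled points passed the threshold, black bars are medians of a set and the dashed line is the median of all tested genes. The mitochondrial sets lie below zero in both panels, and the nuclear sets lie close to it and shift down without library 2.

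Complex I accepts electrons from NADH and has 7 mitochondrially encoded subunits, which form part of its membrane arm. mt-Nd5 (mm39 chromosome M, 11742 to 13565, plus strand) stood at 170, 176 and 320 CPM in IgG-PBS and at 107.5, 117, 159 and 130 CPM in IgG-IFNa. It stood at 310, 262 and 228 CPM in UC7-PBS and at 142, 178 and 133 CPM in UC7-IFNa. Each IFNa group lay below the PBS group of its antibody, UC7-IFNa library 2 included. Its log2 fold change was -0.81 (SE 0.16, edgeR adjusted p = 0.0138), and -0.88 (SE 0.16, adjusted p = 0.00377) without library 2. It was called in 13 of 13 fits that left out 1 library.

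mt-Nd4l (chromosome M, 9877 to 10173), the shortest complex I member of this genome, stood at 2.62, 2.17 and 4.64 CPM in IgG-PBS and at 1.78, 1.11, 0.790 and 1.26 CPM in IgG-IFNa. It stood at 2.51, 2.04 and 4.25 CPM in UC7-PBS and at 0.670, 1.97 and 0.593 CPM in UC7-IFNa. All 7 IFNa libraries lay below all 6 PBS libraries, narrowly, at 1.97 against 2.04 CPM. No other member of the 107 did so, but the share of all genes that did was not counted. Its log2 fold change was -1.41 (SE 0.33, edgeR adjusted p = 0.0397), and -1.78 (SE 0.30, adjusted p = 0.0020) without library 2. These levels rest on 12.6 to 122 estimated counts per library, and with any one of 11 of the 13 libraries left out the adjusted p rose above 0.05, to at most 0.127.

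mt-Nd1, the gene nearest the ribosomal RNAs, stood at 641, 842 and 1305 CPM in IgG-PBS and at 494, 434, 666 and 486 CPM in IgG-IFNa. It stood at 1235, 1045 and 759 CPM in UC7-PBS and at 491, 1169 and 497 CPM in UC7-IFNa. The IgG groups overlapped at 641 and 666 CPM, and UC7-IFNa library 2 lay inside the UC7-PBS range. The log2 fold change was -0.67 (SE 0.22, edgeR adjusted p = 0.15), and -0.94 (SE 0.17, adjusted p = 0.00539) without library 2. mt-Nd4 had -0.71 (adjusted p = 0.137) with all libraries and -0.95 (adjusted p = 0.0208) without library 2, and mt-Nd6 had -0.60 (adjusted p = 0.309) and -0.94 (adjusted p = 0.0297).
The other complex I members missed the threshold in both fits. mt-Nd2 had -0.69 and, without library 2, -1.04 (edgeR adjusted p = 0.0538). mt-Nd3 had -0.79 and, without library 2, -1.33 (adjusted p = 0.112), at levels of 3.82 to 35.3 CPM.

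Complex III passes electrons from ubiquinol to cytochrome c, and mt-Cytb encodes its cytochrome b. mt-Cytb stood at 772, 782 and 1342 CPM in IgG-PBS and at 562, 566, 664 and 560 CPM in IgG-IFNa. It stood at 1326, 1217 and 947 CPM in UC7-PBS and at 553, 1065 and 540 CPM in UC7-IFNa. Leaving aside UC7-IFNa library 2, all IFNa libraries lay below all PBS libraries, but the share of all genes that did so was not counted. For mt-Cytb the log2 fold change was -0.70 (SE 0.18, edgeR adjusted p = 0.0565), and -0.91 (SE 0.14, adjusted p = 0.00077) without library 2.

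Complex IV reduces oxygen to water, and its catalytic core is mitochondrially encoded. mt-Co1, the most abundant member, stood at 2899, 2976 and 5528 CPM in IgG-PBS and at 2436, 2212, 2835 and 2244 CPM in IgG-IFNa. It stood at 4888, 3964 and 3789 CPM in UC7-PBS and at 2301, 4234 and 2407 CPM in UC7-IFNa. The IgG groups did not overlap, but the gap between 2899 and 2835 CPM was small beside the spread, and library 2 alone joined the UC7 groups. For mt-Co1 the log2 fold change was -0.57 (SE 0.18, edgeR adjusted p = 0.123), and -0.75 (SE 0.15, adjusted p = 0.00679) without library 2. mt-Co3 had -0.56 (adjusted p = 0.292), and -0.91 (adjusted p = 0.00544) without library 2. mt-Co2 missed the threshold both ways, at -0.35 (adjusted p = 0.56) and -0.66 (adjusted p = 0.0659).

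Complex V has 2 mitochondrially encoded subunits, both of its membrane part. mt-Atp6 stood at 1006, 1053 and 1911 CPM in IgG-PBS and at 812, 688, 1010 and 775 CPM in IgG-IFNa. It stood at 1888, 1521 and 1228 CPM in UC7-PBS and at 660, 1920 and 734 CPM in UC7-IFNa. UC7-IFNa library 2 was the highest of all 13, and the IgG groups met at 1006 and 1010 CPM. For mt-Atp6 the log2 fold change was -0.59 (SE 0.24, edgeR adjusted p = 0.251), and -0.92 (SE 0.17, adjusted p = 0.0042) without library 2. mt-Atp8 had -0.48 (adjusted p = 0.193) and -0.67 (adjusted p = 0.00842).

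**Figure D3:**
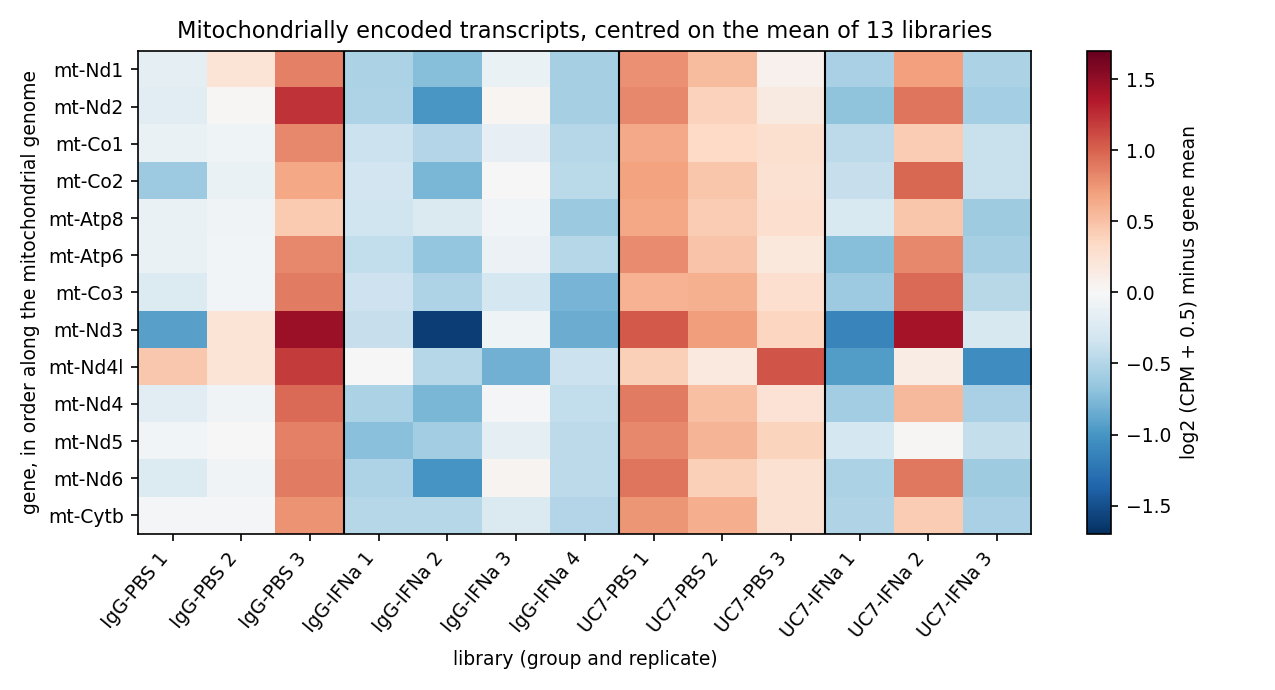
Log2 (CPM + 0.5) of the 13 mitochondrially encoded genes, in their order along the mitochondrial genome, minus each gene's mean over 13 libraries (columns, by group and replicate). IgG-PBS library 3, the UC7-PBS libraries and UC7-IFNa library 2 are above the mean for all 13 genes, and UC7-IFNa libraries 1 and 3 are below it for all 13.

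The genes moved together within a library. All 13 were above their overall mean in IgG-PBS library 3, in each UC7-PBS library and in UC7-IFNa library 2, and none was above it in IgG-IFNa libraries 2 and 4 and UC7-IFNa libraries 1 and 3. All but mt-Nd6 are read from the same strand, and the 13 genes are not 13 independent results. Over the libraries, mt-Co1 took 35.8% to 43.2% of the mitochondrial sum, mt-Atp6 12.4% to 16.3%, mt-Co3 9.30% to 14.2% and mt-Co2 2.85% to 5.04%. The shares of the least abundant genes varied most, with mt-Nd3 at 0.0746% to 0.291% and mt-Nd4l at 0.0106% to 0.0468%. Per kilobase, mean levels over all libraries ran from 6.84 CPM for mt-Nd4l and 44.8 for mt-Nd3 to 1718 for mt-Atp6 and 2127 for mt-Co1.

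Within each antibody, IFNa minus PBS gave lower estimates for all 13 mitochondrial genes, and few calls. After IgG, the median log2 fold change of the 13 was -0.75, and none was called by edgeR (0.827% of all genes were, and 0.208% were called lower). Of the 13, 9 had an unadjusted edgeR p under 0.05, against 1723 of all 15835 genes. DESeq2 called 1, out of 399 genes called, 114 of them lower. In 5 of 13 the IgG-IFNa libraries all lay below the IgG-PBS libraries, against 6.91% of all tested genes. Among the 94 nuclear members 3 were likewise all lower, Ndufv1 and Ndufv2 among them. Of the 94, 1 was all higher, Cox6a2, against 7.09% higher of all genes. These were named after their values were seen. Without IgG-PBS library 3, the highest library, the median shrank to -0.34, and none was called. With UC7-IFNa library 2 left out of the shared spread, mt-Cytb and mt-Nd5 were called after IgG (2.65% of all genes, 0.814% lower). None was when IgG-PBS library 3, UC7-IFNa library 1 or UC7-IFNa library 3 was left out as well.
After UC7-13D5 the median was -0.50, and none was called by edgeR or DESeq2 (0.36% of all genes were by edgeR, 0.0253% lower). Of the 13, 3 had an unadjusted edgeR p under 0.05, against 1202 of all 15835 genes. IFNa and PBS libraries stayed apart for mt-Nd5 and mt-Nd4l of the 13, both lower, and for 1 of the 94 nuclear members, also lower, against 6.09% of all genes. Without library 2 the median was -1.097, mt-Nd4l and mt-Cytb were called (0.678% of all genes, 0.0925% lower) and in 13 of 13 genes both UC7-IFNa libraries lay below the UC7-PBS libraries, against 17.4% of all genes. Of the nuclear members 38 of 94 were likewise all lower and 2 all higher, Ndufs1 and Sdha, against 17.7% higher of all genes. Those 2 libraries are then the whole UC7-IFNa group.

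In the averaged IFNa comparison, the nuclear medians lay closer to that of all genes than the mitochondrial medians did. The nuclear medians were 0.11 in complex I (45 genes), -0.09 in complex II (8), 0.08 in complex III (8), 0.18 in complex IV (16) and 0.10 in complex V (17). Without UC7-IFNa library 2 they were -0.11, -0.16, -0.13, -0.13 and -0.11. In that fit 81 of the 94 estimates were negative, against 8592 of all 16224 genes, whose median was -0.02. The sign of the median therefore depended on that library for complexes I, III, IV and V, and not for complex II, where 7 of 8 estimates were negative both ways. The mitochondrial median was negative both ways. Below, the most abundant nuclear member of each complex is given with those of the smallest p.

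In complex I, Ndufv2, a subunit of its NADH-oxidising module, stood at 127, 134 and 117 CPM in IgG-PBS and at 113, 89.5, 104 and 87.4 CPM in IgG-IFNa. It stood at 97.4, 130 and 103 CPM in UC7-PBS and at 90.5, 136 and 80.3 CPM in UC7-IFNa. The IgG groups did not overlap, and library 2 was the highest of the UC7 libraries. Its log2 fold change was -0.23 (SE 0.13, edgeR adjusted p = 0.449), and -0.36 (SE 0.10, adjusted p = 0.04) without library 2. With 1 further library left out it stayed called in 3 of 12 fits. Ndufa13, the most abundant nuclear complex I member, was at 184 to 206 CPM in IgG-PBS, 181 to 267 in IgG-IFNa, 178 to 225 in UC7-PBS, and 176, 541 and 205 CPM in UC7-IFNa. Its log2 fold change went from 0.42 to 0.08 without library 2.

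In complex II, Sdha, the flavoprotein subunit that oxidises succinate and whose promoter is printed above, stood at 420, 405 and 481 CPM in IgG-PBS and at 434, 470, 387.5 and 423 CPM in IgG-IFNa. It stood at 422, 391 and 444 CPM in UC7-PBS and at 474, 310 and 473 CPM in UC7-IFNa. The IgG groups overlapped, and library 2 had the lowest level of all 13. For Sdha the estimated change was -0.01 on the log2 scale (SE 0.11, edgeR adjusted p = 0.982), and 0.07 (adjusted p = 0.667) without library 2. Sdhaf3 and Sdhaf2, the assembly factors with the smallest p, had -0.29 and -0.14 (adjusted p = 0.455 and 0.523), and -0.38 and -0.12 without library 2. In complex III, Uqcrc1, a core subunit, stood at 255, 320 and 357 CPM in IgG-PBS, at 368, 347, 244 and 239 CPM in IgG-IFNa, at 286, 254 and 249.6 CPM in UC7-PBS and at 252, 403 and 262 CPM in UC7-IFNa. The groups overlapped throughout, with a log2 fold change of 0.08 (adjusted p = 0.871), and -0.05 without library 2. Uqcrc2 had -0.11 (adjusted p = 0.687), and -0.18 without library 2.

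In complex IV, Cox4i1, a regulatory subunit and the most abundant nuclear member of the complex, stood at 465, 552 and 520.3 CPM in IgG-PBS and at 493.2, 414, 553 and 438 CPM in IgG-IFNa. It stood at 474, 581 and 483 CPM in UC7-PBS and at 407, 850 and 420 CPM in UC7-IFNa. Library 2 was the highest, and the others overlapped within IgG. The log2 fold change was 0.01 (SE 0.16, edgeR adjusted p = 0.992), and -0.21 (adjusted p = 0.2) without library 2. Cox6a1 went from 0.37 to -0.01. The tissue-restricted isoforms were near the detection limit, with Cox6a2 at 1 to 21, Cox6b2 at 4 to 25 and Cox7a1 at 7 to 47 estimated counts per library. Cox6a2, the muscle isoform, had the largest nuclear estimate, 1.22 (SE 0.60, adjusted p = 0.368), at a mean of 0.283 CPM. Without library 2 it was 0.61 (SE 0.65, edgeR adjusted p = 0.638).

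In complex V, Atp5b, the catalytic beta subunit and the most abundant nuclear member, stood at 912, 997.5 and 1141 CPM in IgG-PBS and at 964, 942, 903 and 878 CPM in IgG-IFNa. It stood at 938, 852 and 946 CPM in UC7-PBS and at 854, 972 and 943 CPM in UC7-IFNa. All groups overlapped, and the log2 fold change was -0.06 (SE 0.09, edgeR adjusted p = 0.83), and -0.09 without library 2. Atp5md, a small subunit of the membrane part, stood at 92.7, 113 and 66.9 CPM in IgG-PBS, at 137, 103, 176 and 144 CPM in IgG-IFNa, at 80.4, 147 and 114 CPM in UC7-PBS and at 119, 197 and 130 CPM in UC7-IFNa. The groups overlapped at 103 and 113 CPM after IgG, and the log2 fold change of 0.51 (SE 0.18, adjusted p = 0.181) had the smallest p of the nuclear members. It was 0.38 (adjusted p = 0.194) without library 2. Among the other members with the smallest p of their complex, Ndufa3 of complex I had 0.46, Uqcr11 of complex III 0.21 and Atp5d of complex V 0.36, none past the threshold. Without library 2 these estimates were 0.09, -0.07 and 0.10.

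UC7-IFNa library 2 stood apart in the nuclear members. Against the mean of UC7-IFNa libraries 1 and 3, on log2 (CPM + 0.5) over genes with a mean of at least 20 CPM, its nuclear members were higher by a median of 1.01, and 80 of 84 were higher. For all 6949 protein-coding genes the median was -0.14, and 41.9% were higher. Exon bases are the union of all annotated exons of a gene (GENCODE M21), which can exceed the length of its transcripts. The 40 nuclear members with at most 1000 exon bases had a median shift of 1.21, beside 1.12 for all 331 genes in that range. The 30 members of over 1000 to 2000 exon bases had 0.88, beside 0.40 for 1348 genes, and the 10 of over 2000 to 4000 had 0.38, beside -0.20 for 2690 genes. The 4 members of over 4000 exon bases did not follow this order, with 0.97 beside -0.43 for 2580 genes. They were Ndufab1, Ndufb2 and Atp5g1, with shifts of 0.81, 1.12 and 1.52, and Sdhaf2, with -0.16. Whether their transcripts are as long as their exon unions was not examined. Ndufs1 and Sdha, of 2819 and 2900 exon bases, were lower in library 2, by a log2 shift of -1.06 and -0.61, and Atp5e and Cox8a, of 421 and 550 exon bases, were higher by 1.77 and 1.71. Across the 84 members the shift had Pearson's r of -0.57 with log2 exon bases, and across the 6949 genes r was -0.54, as a description over genes of 1 library. The 11 mitochondrial members above 20 CPM were higher by a median of 1.24. Rn18s, the cytosolic small-subunit ribosomal RNA, took 1.14% of that library, against 0.0866% to 0.333% elsewhere. The part of transcript length in the IFNa results was not tested, beyond leaving this library out.

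Spread within groups was larger for the mitochondrial members than for the nuclear ones. The median within-group SD on the log2 scale was 0.51 for the 13 and 0.33 for the 94, and without library 2 it was 0.35 and 0.18. All 7322 genes with a mean of at least 20 CPM had medians of 0.24 and 0.18. This spread limits what 3 or 4 libraries per group can show for the mitochondrial genes.

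UC7-13D5 against IgG asked how the receptor antibody altered these genes. With PBS, the 13 mitochondrial genes had a median log2 fold change of 0.22 and the 94 nuclear genes 0.01. None of either was called by edgeR or DESeq2, and edgeR called 0.00632% of all genes. By edgeR, 0 of the 107 had an unadjusted p under 0.05, against 791 of all 15835 genes. The mitochondrial median was 0.59 without IgG-PBS library 3, 0.03 without IgG-PBS library 1, 0.07 without IgG-PBS library 2, 0.04 without UC7-PBS library 1 and 0.36 without UC7-PBS library 3. The groups overlapped for every mitochondrial gene. They did not overlap for Cox5a, Cox8a and Atp5g2, higher with UC7-13D5, and Ndufaf6, lower, 4 of 94 nuclear members, against 6.6% and 5.8% of all genes. Ndufaf6, an assembly factor of complex I, had the smallest p of the nuclear members. It stood at 7.17, 9.19 and 6.46 CPM in IgG-PBS and at 4.23, 6.05 and 5.35 CPM in UC7-PBS, without overlap. Its log2 fold change was -0.54 (SE 0.28, edgeR adjusted p = 1.0).
With IFNa, the mitochondrial median was 0.43 and the nuclear median 0.26. None of the 107 was called by edgeR or DESeq2, and edgeR called 0.0758% of all genes. By edgeR, 2 nuclear genes had an unadjusted p under 0.05, against 1138 of all 15835 genes. Without library 2 both medians turned negative, to -0.12 and -0.15, and none was called (0.0123% of all genes). The interaction, which asks whether the IFNa difference depended on the antibody, called none of the 107 by edgeR or DESeq2, and edgeR called 0% of all genes, with 502 genes at an unadjusted p under 0.05, where DESeq2 called 5 genes. In it 1 member, the complex II assembly factor Sdhaf1, had an unadjusted edgeR p under 0.05 with all libraries. None had one without library 2, where 716 of all 16224 genes did. The mitochondrial median of the interaction was 0.18, and -0.38 without library 2, so its direction was set by that library. A difference of the IFNa effect between antibodies was not detectable in these libraries.

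Other genes of the pathway were read from lists of mitochondrial functions. The mitochondrial ribosomal RNA mt-Rnr2, read from the start of the same polycistronic RNA, stood at 1246, 1583 and 3207 CPM in IgG-PBS and at 921, 624.8, 1008 and 728 CPM in IgG-IFNa. It stood at 1937, 1559 and 1151 CPM in UC7-PBS and at 649, 2070 and 631 CPM in UC7-IFNa. Only UC7-IFNa library 2 among the IFNa libraries was within the PBS range, but the share of all genes like this was not counted. For mt-Rnr2 the averaged log2 fold change was -0.88 (SE 0.29, edgeR adjusted p = 0.138), and -1.29 (SE 0.24, adjusted p = 0.0108) without library 2.

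Among 9 tested nuclear regulators of mitochondrial genes, 1 rose and 1 fell, with and without library 2. Of all tested genes, 1.99% were called with all libraries and 5.75% without library 2. Gabpb1, a subunit of GABP, stood at 81.6, 93.4 and 79.8 CPM in IgG-PBS and at 131, 136, 188 and 209.8 CPM in IgG-IFNa. It stood at 104, 100.5 and 118 CPM in UC7-PBS and at 138, 151 and 176 CPM in UC7-IFNa. All 7 IFNa libraries were above all 6 PBS libraries, but the share of all genes that did so was not counted. The log2 fold change of Gabpb1 was 0.75 (SE 0.13, edgeR adjusted p = 0.00482), and 0.75 (adjusted p = 0.00132) without library 2. Myc, a transcription factor with many roles in growth and metabolism, stood at 152, 132 and 163 CPM in IgG-PBS and at 76.4, 104, 56.7 and 61.9 CPM in IgG-IFNa. It stood at 110.2, 69.5 and 93.7 CPM in UC7-PBS and at 48.2, 52.2 and 41.2 CPM in UC7-IFNa. It was lower with IFNa after each antibody, and its estimate was -0.97 on the log2 scale (SE 0.15, edgeR adjusted p = 0.0026), and -1.01 (adjusted p = 0.0009) without library 2.

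No gene was called in the averaged comparison with all libraries among 15 genes of mitochondrial DNA copying and transcription, 19 of mitochondrial RNA processing and turnover, 16 of the tricarboxylic acid cycle, 22 of mitochondrial import or 78 mitochondrial ribosomal proteins. Their medians were -0.10, -0.04, -0.08, 0.02 and 0.06, and -0.02, -0.05, -0.03, -0.10 and -0.10 without library 2, so that the sign turned for import and the ribosomal proteins. Polrmt, the mitochondrial RNA polymerase, had -0.17 (edgeR adjusted p = 0.749), and -0.04 without library 2. Tfam, the factor that packs mitochondrial DNA and starts its transcription, had -0.02 (adjusted p = 0.956), and 0.02 without library 2. Pnpt1, a mitochondrial RNA nuclease known as interferon-inducible in other cells, had 0.13 (adjusted p = 0.838), and 0.29 (adjusted p = 0.228) without library 2. Cycs, cytochrome c, had 0.05 (adjusted p = 0.903), and -0.05 without library 2.

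Other measures also differed between the groups. The 16 dissociation and heat-shock genes, all detected, summed to 12952 to 16307 CPM in IgG-PBS, 7056 to 10679 in IgG-IFNa, 7661 to 9856 in UC7-PBS and 6584 to 10766 in UC7-IFNa. IgG-PBS was the highest group, and UC7-PBS lay within the IFNa range. The 11 secretory epithelium markers summed to 115 to 564 CPM in IgG-PBS, 612 to 1224 in IgG-IFNa, 988 to 1909 in UC7-PBS and 341 to 1168 in UC7-IFNa. The 15 absorptive enterocyte markers summed to 158 to 251, 183 to 254, 212 to 280 and 190 to 271 CPM in the same order. After IgG the secretory sums were all higher with IFNa, without overlap. After UC7-13D5 the overlap of both epithelial sums rested on library 2, since UC7-IFNa libraries 1 and 3 held 473 and 341 CPM of secretory and 199 and 190 CPM of absorptive markers, all below UC7-PBS. Of the stroma and endothelium markers in the table, 4 of 6 were below 1 CPM in every library. The part of stress genes and of epithelial RNA in the IFNa difference of the mitochondrial genes was not tested.

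**Figure D4:**
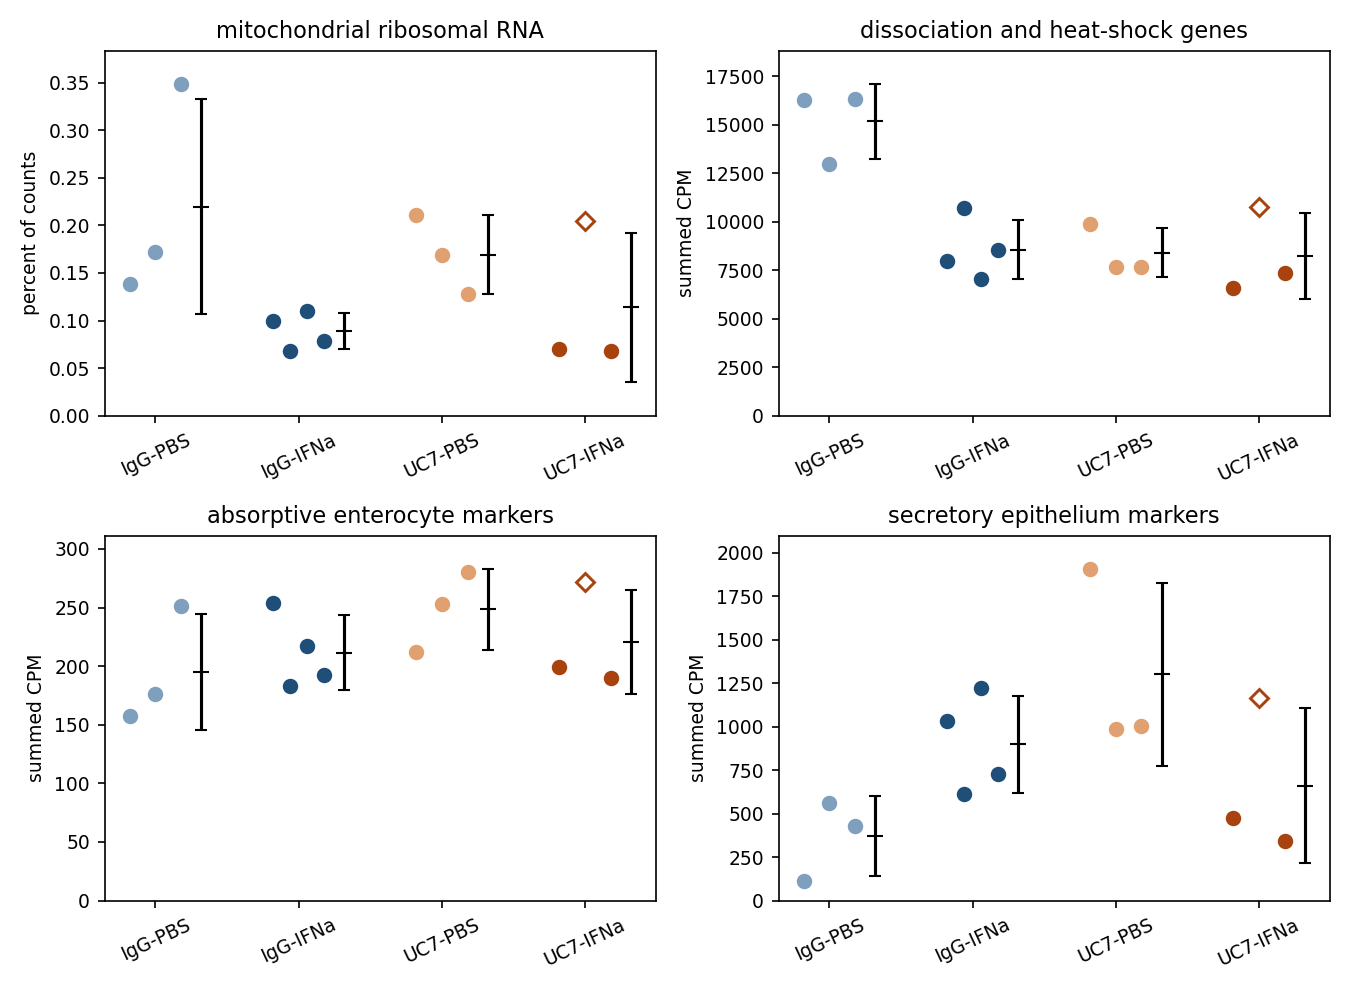
Mitochondrial ribosomal RNA as percent of counts, and the summed CPM of dissociation and heat-shock genes, absorptive enterocyte markers and secretory epithelium markers, by group. Points are libraries, bars are mean ± SD and the open diamond is UC7-IFNa library 2. Like the mitochondrial messenger RNAs, the ribosomal RNA has lower means with IFNa after each antibody. Unlike theirs, its PBS mean is higher after IgG (0.220%) than after UC7-13D5 (0.169%), which rests on IgG-PBS library 3 at 0.349%. IgG-PBS libraries 1 and 2 hold 0.139% and 0.172%, within the UC7-PBS range of 0.128% to 0.211%. Stress genes are highest in IgG-PBS at 12952 to 16307 CPM, and after UC7-13D5 only library 2 of the IFNa libraries reaches the PBS range of the epithelial markers.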

How the data were processed

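The deposited table of estimated counts per gene, not scaled between libraries, was used as the authors made it. STAR 2.7.8a, Partek, DESeq2 and the build mm39 are named, without a role, in the submitters' processing notes. The sources used here do not give the counting tool. A second deposited table, a signal per gene whose values equal the counts over 1 factor per library, was used to check the shares and held 104 members. Deposited genomic spans in bases gave positions. Of the values in the count table, 38.0% were not whole, and they were rounded. Genes were kept with filterByExpr at a minimum count of 10 and scaled by TMM. edgeR 4.0.16 (R 4.3.3) fitted 1 coefficient per group to all 13 libraries, with robust quasi-likelihood F tests, two-sided, and Benjamini-Hochberg adjustment over all tested genes at 0.05. The fit was repeated without UC7-IFNa library 2. The standard error (SE) was derived from the log2 fold change and F. Printed levels are TMM-scaled CPM. DESeq2 1.42.0 was an alternative. Scripts were tested on simulated data. Library totals of 19867201 to 26895876 estimated counts limit mainly the members at a few CPM.

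Members, gene lists and tests were chosen with earlier results of these data known. Named genes were chosen among all mitochondrial members, nuclear members past the threshold, and per complex the most abundant member and the 2 with the smallest p in the averaged IFNa comparison and in UC7-13D5 against IgG with PBS. They also included pathway genes past the threshold and Cycs, Tfam, Polrmt and Pnpt1. Comparisons that reuse a group share its libraries. Lists are described by counts and medians, with no test of a list. 1 gene that the rule names is not reported here.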

Additional observations from a re-analysis of the deposited data

Results flagged for a closer look

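Of 39 values examined in the IgG-IFNa group, the only one with 4 libraries, 1 had a library far from the others. mt-Cytb stood at 663.5 CPM in IgG-IFNa library 3 against 560.2 to 565.5 CPM in the other 3, a gap of 0.949 of the group's whole range. Chance marks about 1 in 20 such groups.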

How the results depend on the processing

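Leaving out 1 library at a time gave these ranges. Mitochondrial calls were 0 to 2 after IgG, 0 to 2 after UC7-13D5 and 1 to 10 in the averaged comparison, where only the fit without UC7-IFNa library 2 exceeded 2. Nuclear calls in the averaged comparison were 0 to 1. Calls over all genes also moved there, from 1.99% of 15835 with all libraries to 5.75% of 16224 without UC7-IFNa library 2. They are not given for the other fits of this paragraph, so its ranges of calls describe stability and do not set the members against all genes. Medians were -1.10 to -0.29 (mitochondrial) and -0.18 to 0.41 (nuclear) after UC7-13D5, -0.12 to 0.67 and -0.15 to 0.43 for UC7-13D5 against IgG with IFNa, and -0.38 to 0.40 and -0.15 to 0.46 for the interaction. Leaving a further library out of the 12 gave 0 to 5 mitochondrial calls after IgG, 0 to 9 after UC7-13D5 and 7 to 13 in the averaged comparison, with 0 to 4 nuclear calls there.

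With all libraries, DESeq2's test called 1 mitochondrial member after IgG and 5 in the averaged comparison, a fit to the compared groups alone called 1 after IgG, the replicate block 0 in the averaged comparison and a covariate of Y-linked transcripts 1. Of all genes, these fits called 399, 777, 343, 146 and 127 in the same order. Without UC7-IFNa library 2, mitochondrial calls after IgG were 7 by DESeq2, 1 with no low-count filter, 0 with the replicate block, 0 with the covariate and 0 without IgG-IFNa libraries 3 and 4, a setting chosen after seeing the data. After UC7-13D5 they were 9 by DESeq2 and 0 with the replicate block. Nuclear calls were 1 by DESeq2 after IgG, and in the averaged comparison 2 by DESeq2, 0 with no filter, 0 with the replicate block and 2 without IgG-IFNa libraries 3 and 4. Of all genes, the fits after IgG called 826, 411, 139, 82 and 162 in the order given, those after UC7-13D5 332 and 79, and those of the averaged comparison 1583, 905, 418 and 942. The cause was not tested. Same-numbered libraries correlated at -0.21 to 0.13 in their deviations from group means, over 0.1 in 2 of 18 pairs. No clear common deviation by number was seen, but these correlations cannot tell whether same-numbered samples were collected or handled together.

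No direction of a tested call reversed. Fits to the compared groups alone could not be made for the averaged comparison and the interaction, which use every group. Where 1 library of a pair is left out, the lone one is assumed to vary like the other groups. Members below 1 CPM and mt-Nd4l are limited by depth.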

Other observations

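Mitochondrial ribosomal proteins and coenzyme Q synthesis, which supply the machinery that translates the 13 mitochondrial messages and the electron carrier between complexes I and III, changed in few genes. Without UC7-IFNa library 2, 5 of 78 mitochondrial ribosomal protein genes were called lower with IFNa in the averaged comparison, at a list median of -0.10, and 2.18% of all genes were called lower. They were Mrps9 at -0.41 (edgeR adjusted p = 0.0353), Mrpl11 at -0.40 (adjusted p = 0.0397), Mrps35 at -0.37 (adjusted p = 0.0398), Mrps28 at -0.55 (adjusted p = 0.0438) and Mrps14 at -0.35 (adjusted p = 0.0489), the last named after its values were seen. Coq3, a methyltransferase of coenzyme Q synthesis, fell by 0.42 on the log2 scale (adjusted p = 0.0474), the only one of 13 such genes. With all libraries none of these 6 passed.

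After IgG and without library 2, Polg2, the accessory subunit of the mitochondrial DNA polymerase, rose by 0.62 (edgeR adjusted p = 0.0373), and Tefm, the elongation factor of mitochondrial transcription, fell by 0.75 (adjusted p = 0.044). Neither passed with all libraries, at adjusted p = 0.117 and 0.381.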
